A study of Homo sapiens with 19 samples.

Results

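The 10 genes described here encode accessory subunits of the mammalian SWI/SNF chromatin remodelling complexes: ARID1A, ARID1B, DPF2, SS18, ARID2, PBRM1, BRD7, PHF10, BRD9 and BICRA, the last also known as GLTSCR1. They were chosen by symbol from a list and matched to Ensembl identifiers, 1 identifier for each gene, among the 44717 genes listed for any of the 19 samples, and all 10 were listed for every sample. SWI/SNF complexes slide or eject nucleosomes with the energy of an ATPase, which is either BRG1 (SMARCA4) or BRM (SMARCA2). They are assembled in several forms that share core subunits and differ in accessory ones. Canonical BAF holds ARID1A or ARID1B, DPF2 and SS18. PBAF holds ARID2, PBRM1, BRD7 and PHF10. The non-canonical form, ncBAF, holds BRD9, BICRA and SS18. In melanocytes and melanoma cells BRG1 is a known cofactor of MITF, the transcription factor that controls the melanocyte lineage, and the study silenced both.

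RNA was sequenced from 501Mel, a human melanoma cell line, and from Hermes 3A, a line of untransformed human melanocytes. Each was infected with lentiviral vectors expressing a short hairpin RNA, a single construct for BRG1 (shBRG1) and a single one for MITF (shMITF), or a scramble control. In 501Mel there were 3 samples with shSCR1, 3 with shBRG1, 2 with shSCR2 and 2 with shMITF, and in Hermes 3A 3 samples each with shSCR, shBRG1 and shMITF. Both knockdowns of Hermes 3A shared the shSCR samples, whereas each knockdown of 501Mel had its own scramble group. For Hermes 3A, 34033 genes were listed for the shMITF samples, against 42224 for shSCR and shBRG1. That difference in listing cannot be told apart from the shMITF knockdown there. In 501Mel each knockdown group had as many genes listed as its own scramble group. Hermes 3A medium additionally contained TPA, cholera toxin, stem cell factor and endothelin-1, so that cell line and medium cannot be told apart. The sources do not state that replicates were separate cultures, and p-values measure the spread between these samples, which may be technical.

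The sequences upstream of PBRM1 and SS18 are given first. PBRM1 was lower and SS18 higher at an adjusted p under 0.05 in edgeR in each of the 4 knockdown comparisons. ARID1B was also lower and DPF2 also higher in all 4, but neither passed in each. Against both scramble groups of 501Mel pooled, SS18 did not pass with either knockdown. RefSeq windows on GRCh38.p14 were found for 9 of the 10 genes, all but ARID2, in 14 windows, of which the 250 bases upstream of the start were searched on both strands. The letters were CACGTG, a palindrome that MITF and related factors bind, CATGTG, the core of the M-box of pigmentation genes, and ACAAAG, the core of SOX-factor sites. None of these motifs overlaps another in the windows shown. The lines below run 5′ to 3′ along the gene, with matches in capitals (CTTTGT is ACAAAG on the other strand).
PBRM1, chr3:52685914-52686163, minus strand: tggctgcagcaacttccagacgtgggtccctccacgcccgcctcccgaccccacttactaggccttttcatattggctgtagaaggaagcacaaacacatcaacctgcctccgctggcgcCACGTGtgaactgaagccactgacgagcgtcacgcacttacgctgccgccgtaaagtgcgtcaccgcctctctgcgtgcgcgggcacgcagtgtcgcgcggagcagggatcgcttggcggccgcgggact
SS18, chr18:26091220-26091469, minus strand: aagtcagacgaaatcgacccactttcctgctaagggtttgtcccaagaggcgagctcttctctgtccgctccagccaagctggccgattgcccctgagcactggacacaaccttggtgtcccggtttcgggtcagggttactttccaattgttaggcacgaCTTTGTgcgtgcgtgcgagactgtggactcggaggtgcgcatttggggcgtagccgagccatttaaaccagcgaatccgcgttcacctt
The CACGTG upstream of PBRM1 begins 130 bases before the start and was the only CACGTG in the 14 windows. CACGTG occurred in 6.34% of all 35116 windows. CATGTG was in none of the 14 and in 9.42% of all windows. ACAAAG was in 4 of the 14, in 1 window each of SS18, PBRM1, BRD9 and BICRA, beginning 89, 95, 41 and 228 bases before the start, and in 13.7% of all windows. The PBRM1 match was in its other window. That window and the BRD9 window with ACAAAG lie inside the annotated gene, upstream of an inner start. All are matches of letters and were not tested as binding sites.

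Between 29158502 and 78857900 reads were counted on genes per sample, and the 10 genes took 0.0511% to 0.104% of them, with 387 to 24933 reads for a single gene in a single sample. Samples of a group differed little with shSCR1, shBRG1 and the Hermes 3A scramble, where the biological coefficient of variation was 4.58% to 5.88%. It was 16.5% for shSCR2, 17.4% for shMITF in 501Mel and 28.6% for shMITF in Hermes 3A, so that changes with shMITF were less precisely measured. All 10 melanocyte lineage markers were detected in each group. Their summed level was 30097 to 32381 CPM (counts per 1e6 reads, normalised over all 19 samples) with shSCR1 and 3354 to 3669 CPM with shBRG1 in 501Mel, and 21337 to 23871 CPM with shSCR2 and 11956 to 12464 CPM with shMITF. In Hermes 3A the sum was 64228 to 65455 CPM with shSCR, 30883 to 32525 CPM with shBRG1 and 26602 to 34674 CPM with shMITF. The 6 fibroblast markers summed to 71.3 to 80.0 CPM with Hermes 3A shSCR, 139 to 148 CPM with shBRG1 and 113 to 218 CPM with shMITF, and to at most 19.5 CPM in 501Mel. Immune markers (3 of 4 listed for every sample) summed to at most 1.39 CPM and keratinocyte markers (2 of 6) to at most 65.3 CPM, the latter in Hermes 3A with shMITF against 32.3 to 35.0 CPM with shSCR. These marker levels moved with the knockdowns, and their part in the results below was not tested. A lower level in a bulk library can mean fewer cells with a transcript or less of it per cell, which cannot be told apart.

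The targeted genes were lower in the libraries labelled with their knockdown than in their own scramble group. SMARCA4, which encodes BRG1, was at 178, 193 and 185 CPM with shSCR1 and at 37.4, 40.5 and 35.8 CPM with shBRG1 in 501Mel. In Hermes 3A it was at 243, 254 and 227 CPM with shSCR and at 44.3, 46.2 and 47.4 CPM with shBRG1. The log2 fold changes were -2.36 ± 0.05 and -2.38 ± 0.05 (SE), and their difference between the lines was -0.01 ± 0.07 in 1 fit (adjusted p = 0.96, edgeR quasi-likelihood test, adjusted over all genes by Benjamini-Hochberg like each adjusted p below). Over 18 settings that difference ranged from -0.06 to 0.27, and it passed in 2 of them. MITF was at 1046 and 1184 CPM with shSCR2 and at 493 and 545 CPM with shMITF in 501Mel. In Hermes 3A it was at 1012, 1030 and 1117 CPM with shSCR and at 455, 718 and 543 CPM with shMITF. These differences were -1.06 ± 0.14 (adjusted p = 0.0014) and -0.85 ± 0.19 (adjusted p = 0.019) on the log2 scale. With shSCR1 MITF was at 574 ± 54 CPM (SD, n = 3), close to its level with shMITF in 501Mel, and against both scramble groups pooled it was not called (-0.58, adjusted p = 0.41). In Hermes 3A the fall was not called when any of the 3 shSCR samples or replicate 3 of shMITF was left out (adjusted p = 0.052 to 0.096). MITF also fell with shBRG1, by 1.55 in 501Mel and by 0.43 in Hermes 3A, whereas SMARCA4 was not shown to differ with shMITF (-0.13 ± 0.12, adjusted p = 0.47, and -0.27 ± 0.19, adjusted p = 0.36).

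All 10 transcripts were present in the scramble controls. Per kilobase of the longest protein-coding transcript, BRD9, the bromodomain subunit that defines ncBAF, was the most abundant, at 69.8 ± 1.6 CPM per kilobase in 501Mel with shSCR1 and 36.2 ± 1.4 in Hermes 3A (SD, n = 3). PBRM1, DPF2 and ARID1A followed in 501Mel, at 26.6 ± 1.5, 22.9 ± 0.4 and 18.5 ± 0.3 CPM per kilobase. In Hermes 3A SS18, at 21.6 ± 1.0, stood between BRD9 and PBRM1, whereas in 501Mel it was seventh at 9.71 ± 0.18. ARID2 and BICRA were lowest in both lines, at 3.65 ± 0.03 and 3.24 ± 0.05 CPM per kilobase in 501Mel and at 4.47 ± 0.20 and 3.66 ± 0.45 in Hermes 3A. In these 2 groups every sample of a gene lay above every sample of the next gene in the order. With the merged length of all exons instead, chosen after the values were seen, PBRM1 and not BRD9 ranked first in both groups. The transcript used for BRD9 has 2156 bases and its merged exons have 9572, so that its rank depends on which transcripts are present.

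**Figure D1:**
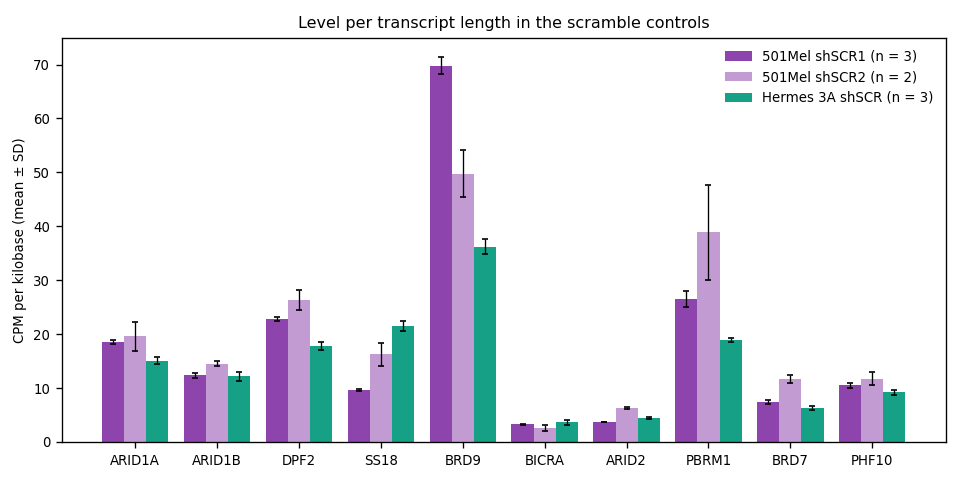
Mean level of each of the 10 transcripts in CPM per kilobase of its longest protein-coding transcript (vertical axis, from 0) in the scramble groups of 501Mel (shSCR1, n = 3, and shSCR2, n = 2) and Hermes 3A (n = 3), with bars for the SD. BRD9 is highest in each group and SS18 is lower in 501Mel shSCR1 (9.71) than in Hermes 3A (21.6).

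Between the lines, 6 of the 10 genes were higher and 2 lower in 501Mel shSCR1 than in Hermes 3A shSCR at an adjusted p under 0.05, against 41.4% higher and 40.2% lower of all 18731 genes tested. Against shSCR1 the largest differences were those of SS18 and BRD9. SS18 was at 33.7, 33.3 and 32.5 CPM in 501Mel and at 72.4, 71.1 and 77.3 CPM in Hermes 3A, a log2 difference of -1.15 ± 0.05 (adjusted p = 6.6e-16). BRD9 was at 147, 150 and 154 CPM against 78.4, 81.0 and 74.8 CPM, a difference of 0.94 ± 0.05 (adjusted p = 4.3e-15). Neither pair of groups overlapped. Here and below, the share of all genes whose groups separate in this way is not given. PBRM1 (0.49), DPF2 (0.36), ARID1A (0.29), BRD7 (0.22) and PHF10 (0.19) were higher in 501Mel by less, and ARID2 lower (-0.29, adjusted p = 8e-05). ARID1B (0.02 ± 0.05, adjusted p = 0.75) and BICRA (-0.17 ± 0.08, adjusted p = 0.051) did not pass. With library sizes in place of TMM scaling, the median of all genes moved from 0.04 to 0.30 and 9600 genes were higher and 5900 lower, against 7746 and 7537, and ARID2 no longer passed (-0.04, adjusted p = 0.58). The order of these differences depended on the scramble group. With shSCR2 as the 501Mel control 8 genes were higher and 2 lower, PBRM1 (1.03) and BRD7 (0.87) differed most, SS18 (-0.42) and BRD9 (0.45) differed less, and ARID2 was higher in 501Mel (0.49, adjusted p = 0.00031).

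SS18 has a paralog, SS18L1 (CREST), which can take its place in the complex, and the lines differed in which of the pair was more abundant. SS18L1 was at 238, 245 and 242 CPM in 501Mel with shSCR1 and at 27.4, 26.9 and 26.1 CPM in Hermes 3A, 9.01-fold higher in 501Mel (log2 3.17 ± 0.05, adjusted p = 1.7e-25). Within each library, per kilobase, the log2 ratio of SS18 to SS18L1 was -2.47 ± 0.04 in 501Mel and 1.85 ± 0.10 in Hermes 3A (SD, n = 3). SS18L1 therefore exceeded SS18 in 501Mel, and SS18 exceeded SS18L1 in Hermes 3A, in every scramble library. This ratio was added after the values were seen, and an exact two-sided permutation test of 3 against 3 samples gave 0.1, the smallest p the design allows. The paralogs of DPF2 were low: DPF1 was at 2.52 to 8.31 CPM and DPF3 at no more than 1.06 CPM in any sample.

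**Figure D2:**
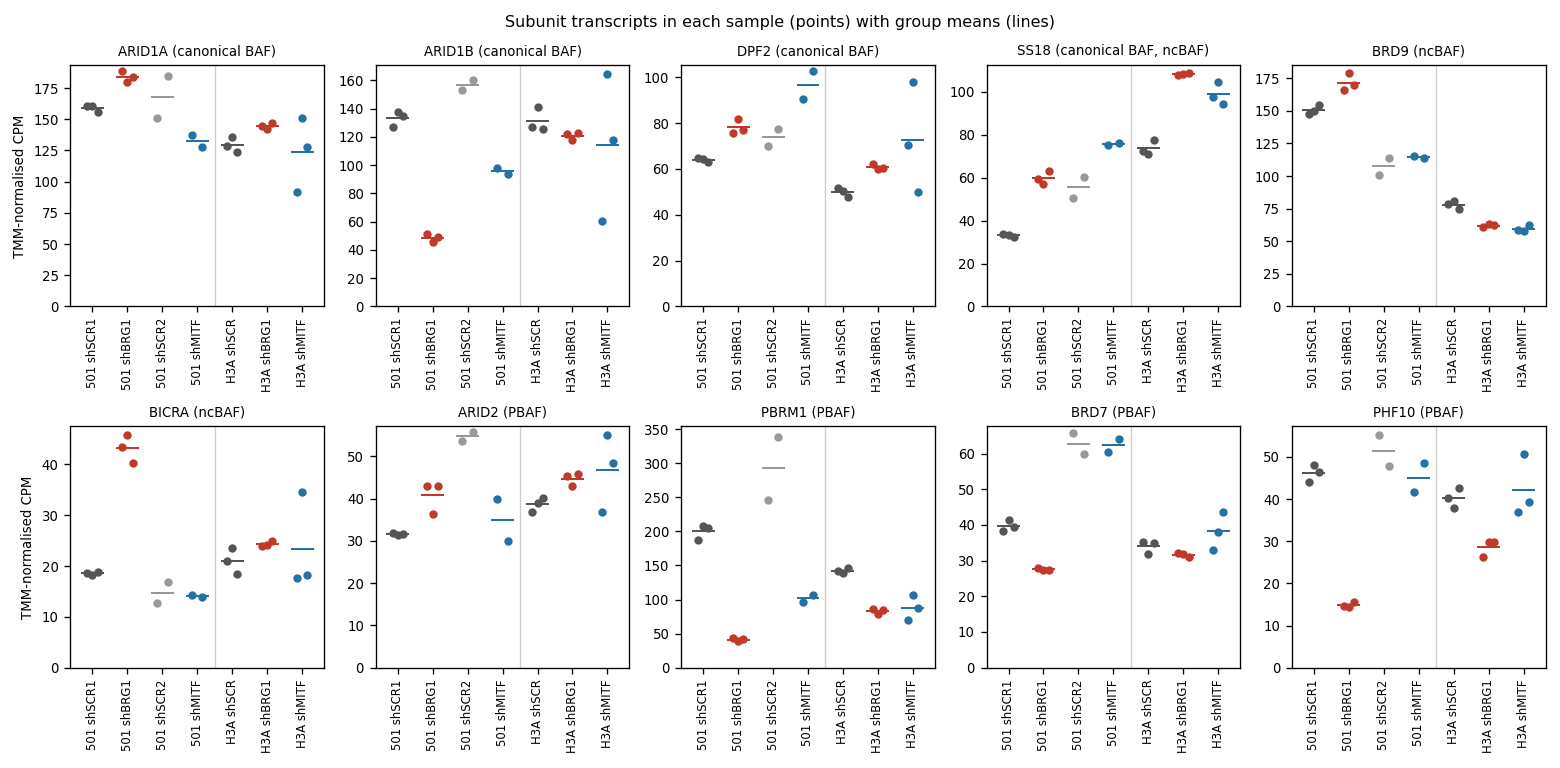
Level of each of the 10 transcripts in CPM, normalised over all 19 samples (vertical axes, from 0), in every sample (points) of the 7 groups, with a line at each group mean (501, 501Mel; H3A, Hermes 3A). PBRM1 lies below its own scramble samples in all 4 knockdown groups and SS18 lies above them, whereas ARID1B and PHF10 drop most in 501Mel with shBRG1.

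The scramble groups of 501Mel differed from each other, which bears on each comparison in that line. Of 19056 genes tested, 35.3% were higher and 34.5% lower in shSCR2 than in shSCR1, and of the 10 genes 6 were higher and 2 lower. ARID2 was at 31.8, 31.3 and 31.6 CPM with shSCR1 and at 53.6 and 55.8 CPM with shSCR2 (0.81 ± 0.07 on the log2 scale, adjusted p = 9e-06). SS18 (0.76), BRD7 (0.67) and PBRM1 (0.56) were also higher in shSCR2, and BRD9 was lower (-0.47). MITF was higher in shSCR2 by 0.97 and SMARCA4 by 0.83. Knockdown effects in 501Mel were therefore also computed against both scramble groups pooled. With library sizes the median of all genes went from -0.03 to -0.17 in this comparison, and 4 genes of the 10 were higher.

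BRG1 silencing in 501Mel changed the level of all 10 transcripts at an adjusted p under 0.05, 6 upwards and 4 downwards, where 41.2% of the 20514 genes tested were higher and 39.1% lower. The 4 that fell were PBRM1, PHF10, ARID1B and BRD7, of which all but ARID1B belong to PBAF. Against shSCR1 and shSCR2 pooled, these 4 fell and BICRA rose, whereas the rises of ARID1A, DPF2, SS18, ARID2 and BRD9 were not called. In that fit 5639 of 20772 genes were higher and 5042 lower. By the study's rule, which also asks for a log2 fold change beyond 1 in size, 3 fell, against 17.4% of all genes, and 1 rose, BICRA, against 21.7%. Scaling moved these values: with library sizes in place of TMM the median of all genes went from 0.05 to 0.40 and 11302 genes were higher and 5838 lower, against 8442 and 8022. The direction of the 10 genes was unchanged by that scaling, and given relative to the median of all genes their values were nearly the same with both (PBRM1 -2.40 and -2.39, BICRA 1.10 and 1.10).

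PBRM1 (BAF180, ENSG00000163939, chromosome 3, 52545352 to 52685917 on GRCh38), which reads acetylated histones through a row of bromodomains, fell furthest. It was at 187, 208 and 205 CPM with shSCR1 and at 43.0, 38.99 and 41.8 CPM with shBRG1, 5.07-fold lower (log2 -2.34 ± 0.05, adjusted p = 4.3e-21). The groups were far apart, and the change was close in size to that of SMARCA4 (-2.36), with no test of the difference. PHF10 (BAF45A, ENSG00000130024, chromosome 6, 169703905 to 169725566), a PHD-finger subunit of PBAF, went from 44.0, 48.1 and 46.5 CPM to 14.7, 14.3 and 15.5 CPM (-1.71 ± 0.06, adjusted p = 7e-18). BRD7 (ENSG00000166164, chromosome 16, 50313487 to 50368934), the bromodomain subunit of PBAF, went from 38.4, 41.4 and 39.5 CPM to 27.8, 27.4 and 27.5 CPM (-0.59 ± 0.05, adjusted p = 4.8e-10). For each of these 3 genes every shBRG1 sample lay below every shSCR1 and every shSCR2 sample. ARID2 (BAF200, ENSG00000189079, chromosome 12, 45729665 to 45908040), the subunit on which PBAF assembles, did not fall with them: it was at 31.8, 31.3 and 31.6 CPM with shSCR1 and at 42.9, 36.5 and 43.0 CPM with shBRG1 (0.30 ± 0.06, adjusted p = 8.9e-05). Against both scramble groups pooled, ARID2 was at -0.03 ± 0.25 (adjusted p = 0.92), whereas PBRM1 (-2.55), PHF10 (-1.73), ARID1B (-1.58) and BRD7 (-0.86) fell there too.

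Among the canonical BAF subunits, ARID1A and ARID1B, alternative DNA-binding subunits that exclude each other from a complex, differed: ARID1B fell and ARID1A was slightly higher. ARID1B (BAF250B, ENSG00000049618, chromosome 6, 156776020 to 157210779) went from 127, 138 and 135 CPM to 51.3, 45.4 and 49.3 CPM, 2.87-fold lower (-1.52 ± 0.05, adjusted p = 7.7e-18). ARID1A (BAF250A, ENSG00000117713, chromosome 1, 26693236 to 26782110) was at 160, 161 and 155 CPM and then at 188, 180 and 184 CPM (0.15 ± 0.04, adjusted p = 0.0042). The small rise of ARID1A was no longer called without replicate 3 of shSCR1 (0.11, adjusted p = 0.076), without a filter on low counts (adjusted p = 0.10), in a fit of all 501Mel groups together (adjusted p = 0.069) or against both scramble groups pooled (0.15, adjusted p = 0.23). The log2 ratio of ARID1A to ARID1B per kilobase rose from 0.59 ± 0.07 to 2.25 ± 0.06 (SD, n = 3), with no overlap (exact permutation p = 0.1, the smallest possible). Its mean was also higher, by less, in the other knockdown groups. It was 0.42 ± 0.15 with shSCR2 and 0.80 ± 0.03 with shMITF in 501Mel (n = 2). In Hermes 3A it was 0.31 ± 0.04 with shSCR, 0.59 ± 0.02 with shBRG1 and 0.53 ± 0.37 with shMITF (exact permutation p = 0.1 and 0.5). DPF2 (BAF45D, ENSG00000133884, chromosome 11, 65333754 to 65353249), a PHD-finger subunit, rose by 0.22 ± 0.05 (adjusted p = 0.00021), but not against pooled scrambles (0.17, adjusted p = 0.21).

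SS18 (ENSG00000141380, chromosome 18, 26016253 to 26091217), best known as the gene fused to SSX genes in synovial sarcoma, rose from 33.7, 33.3 and 32.5 CPM to 59.4, 57.2 and 63.1 CPM (0.79 ± 0.05, adjusted p = 1.8e-12). The shBRG1 samples lay above shSCR1 and overlapped shSCR2, at 50.4 and 60.5 CPM, and against both pooled the difference did not pass (0.48 ± 0.23, adjusted p = 0.11). SS18L1 fell at the same time (-0.84 ± 0.04, adjusted p = 2e-14), so that the log2 ratio of SS18 to SS18L1 went from -2.47 to -0.85 ± 0.07. With shSCR2 this ratio was -1.41 ± 0.10 (n = 2). BICRA (ENSG00000063169, chromosome 19, 47608196 to 47703277), a scaffold of ncBAF, rose from 18.6, 18.3 and 18.8 CPM to 43.4, 45.8 and 40.2 CPM, 2.22-fold (1.15 ± 0.06, adjusted p = 1.3e-14), and also against pooled scrambles (1.31, adjusted p = 0.00013). Its paralog BICRAL went the other way (-0.79 ± 0.07, adjusted p = 1.5e-10). BRD9 (ENSG00000028310, chromosome 5, 850291 to 892824) was at 147, 150 and 154 CPM and then at 166, 179 and 170 CPM (0.12 ± 0.05, adjusted p = 0.018), a difference that lost its call when any shSCR1 replicate, or replicate 2 or 3 of shBRG1, was left out (adjusted p = 0.052 to 0.11), with no filter on low counts (adjusted p = 0.21) or in a fit of all 501Mel groups (adjusted p = 0.082).

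In Hermes 3A, silencing of BRG1 lowered PBRM1, PHF10 and BRD9 and raised SS18. At an adjusted p under 0.05, 5 of the 10 genes rose and 3 fell, where 28.2% of 17222 genes were higher and 28.6% lower, and no gene of the 10 passed the study's fold rule (5.78% of all genes were higher and 3.47% lower by it). PBRM1 went from 142, 139 and 146 CPM to 86.4, 79.5 and 84.6 CPM (-0.76 ± 0.04, adjusted p = 6.1e-15). PHF10 went from 40.3, 38.0 and 42.7 CPM to 26.3, 29.8 and 29.9 CPM (-0.48 ± 0.06, adjusted p = 2.6e-07). Samples of the groups did not overlap for either PBAF gene. BRD9 fell here, from 78.4, 81.0 and 74.8 CPM to 60.6, 63.0 and 62.5 CPM (-0.32 ± 0.05, adjusted p = 1e-06). SS18 rose from 72.4, 71.1 and 77.3 CPM to 108, 108 and 109 CPM (0.57 ± 0.04, adjusted p = 3.7e-12). DPF2 (0.30), BICRA (0.23), ARID2 (0.22) and ARID1A (0.17) rose by less. ARID1B (-0.11 ± 0.05, adjusted p = 0.052) and BRD7 (-0.09 ± 0.06, adjusted p = 0.19) did not pass. ARID1B was called lower with the replicate number as a block (-0.10, adjusted p = 0.034) and without replicate 1 (adjusted p = 0.040) or 3 (adjusted p = 0.0045) of shSCR, and BRD7 changed sign with library sizes in place of TMM (0.01). With that scaling the median of all genes went from 0.01 to 0.11 and the counts of all genes from 4862 higher and 4934 lower to 6392 and 3678. When the more variable shMITF samples shared the estimate of the spread, only SS18, PBRM1, PHF10 and BRD9 kept their calls. BICRA was also not called without replicate 3 of shSCR (0.14, adjusted p = 0.13) or of shBRG1 (0.20, adjusted p = 0.061).

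**Figure D3:**
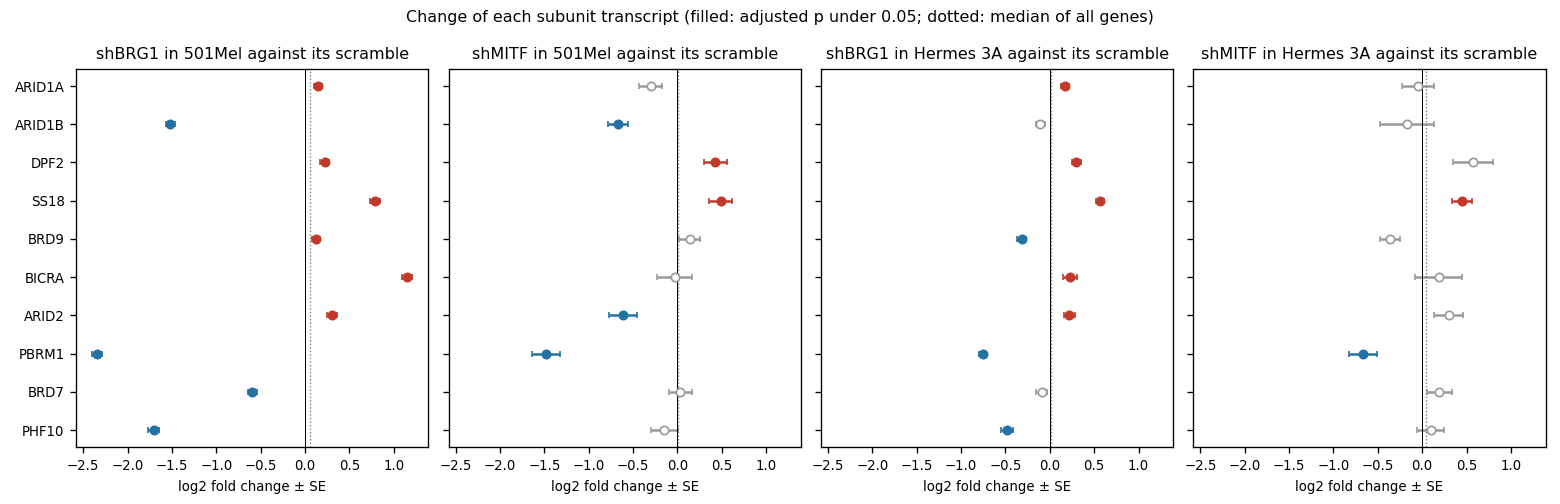
Log2 fold change with its SE (horizontal axis) of each of the 10 transcripts in the 4 knockdown comparisons, each against its own scramble group. Filled points passed an adjusted p under 0.05 (red higher, blue lower), open points did not, and the dotted line is the median of all genes tested. PBRM1 is lower (-2.34, -1.48, -0.76 and -0.67) and SS18 higher (0.79, 0.49, 0.57 and 0.45) in all 4 panels, with filled points. ARID1B is also lower and DPF2 also higher in all 4, with open points in some.

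The effect of BRG1 silencing differed between the lines for 7 of the 10 genes when the difference itself was tested, at 24.8% higher and 33.1% lower of the 21697 genes in that test. The fall was deeper in 501Mel for PBRM1 (difference -1.62 ± 0.07, adjusted p = 7.2e-22), ARID1B (-1.44 ± 0.07, adjusted p = 4.9e-20), PHF10 (-1.25 ± 0.09, adjusted p = 5.6e-15) and BRD7 (-0.53 ± 0.08, adjusted p = 4.9e-07). BICRA (0.89 ± 0.10, adjusted p = 4.6e-10) and BRD9 (0.41 ± 0.06, adjusted p = 6e-07) were relatively higher in 501Mel, BRD9 having been higher than shSCR1 in 501Mel, a call that most alternatives lost, and lower than shSCR in Hermes 3A. SS18 also passed (0.19 ± 0.07, adjusted p = 0.019), but not when any of 8 of the 12 samples was left out (highest adjusted p = 0.15). ARID1A (-0.06 ± 0.06), DPF2 (-0.11 ± 0.07) and ARID2 (0.05 ± 0.09) did not pass, and with library sizes in place of TMM these 3 were higher in 501Mel (0.22, 0.17 and 0.33). That scaling moved the median of all genes from -0.03 to 0.25 and the counts from 5384 higher and 7189 lower to 7641 and 5357. MITF fell more in 501Mel (-1.15 ± 0.08).

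MITF silencing in 501Mel, against shSCR2, gave 2 of the 10 genes higher and 3 lower, where 10.0% of 17701 genes were higher and 10.5% lower. Scaled by library size instead, 2300 genes were higher and 1383 lower, against 1775 and 1862. PBRM1 passed the study's fold rule, as did 3.40% of all genes on the lower side (5.59% on the higher). PBRM1 was at 246 and 339 CPM with shSCR2 and at 96.8 and 107 CPM with shMITF (-1.48 ± 0.16, adjusted p = 0.00087), and both shMITF samples also lay below the 3 shSCR1 samples. ARID1B went from 153 and 161 CPM to 97.9 and 93.9 CPM (-0.67 ± 0.12, adjusted p = 0.0048), again below shSCR1. ARID2 went from 53.6 and 55.8 CPM to 39.9 and 29.9 CPM (-0.61 ± 0.15, adjusted p = 0.023), but shSCR1 samples, at 31.3 to 31.8 CPM, lay between the shMITF samples. SS18 was at 50.4 and 60.5 CPM and then at 75.2 and 75.9 CPM (0.49 ± 0.13, adjusted p = 0.033), above both scramble groups. DPF2 was at 70.1 and 77.5 CPM and then at 90.4 and 102 CPM (0.43 ± 0.13, adjusted p = 0.0497), likewise above both. ARID1A (-0.30 ± 0.13, adjusted p = 0.13), PHF10 (-0.15), BRD9 (0.14), BICRA (-0.03) and BRD7 (0.03) did not pass.

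These calls rested on 2 samples a group and on the choice of scramble. Pooling both scramble groups left 457 of 19569 genes higher and 355 lower, where the fit against shSCR2 had 1775 and 1862 of 17701. Against both scramble groups pooled, none of the 10 passed in edgeR: PBRM1 was at -1.19 ± 0.26 (adjusted p = 0.052), ARID1B at -0.55 (adjusted p = 0.089), DPF2 at 0.54 (adjusted p = 0.084), SS18 at 0.87 (adjusted p = 0.12) and ARID2 at -0.20 (adjusted p = 0.73), with 2 higher and 2 lower at an unadjusted p under 0.05. SS18 was not called without replicate 1 of shSCR2 (adjusted p = 0.18) or replicate 2 of shMITF (adjusted p = 0.13), ARID2 not without replicate 2 of shMITF (adjusted p = 0.14), and DPF2 not without either shSCR2 sample or replicate 2 of shMITF (adjusted p = 0.076 to 0.31). PBRM1 and ARID1B kept their calls whichever sample was left out.

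MITF silencing in Hermes 3A changed 2 of the 10 genes at an adjusted p under 0.05, 1 in each direction, where 7.85% of 16508 genes were higher and 9.15% lower (1296 and 1510, or 1880 and 1127 with library sizes in place of TMM). PBRM1 went from 142, 139 and 146 CPM to 69.9, 106 and 87.5 CPM (-0.67 ± 0.16, adjusted p = 0.025). SS18 went from 72.4, 71.1 and 77.3 CPM to 97.4, 104 and 94.3 CPM (0.45 ± 0.11, adjusted p = 0.028). For both the groups did not overlap, but neither was called when any of the 3 scramble samples was left out (adjusted p = 0.092 to 0.18). Calls over all genes also dropped then, to 295 to 356 higher and 468 to 556 lower. PBRM1 stayed at -0.69 to -0.67 and SS18 at 0.42 to 0.47. SS18 was also not called with no filter on low counts (adjusted p = 0.068) or with the replicate number as a block (adjusted p = 0.069). PBRM1 was also not called without replicate 3 of shMITF (adjusted p = 0.062) or with library sizes (-0.56, adjusted p = 0.069). BRD9 was below its scramble in all 3 samples, at 58.7, 57.9 and 62.3 CPM (-0.36 ± 0.11, adjusted p = 0.054), and passed in 5 of 13 settings. The other 7 did not pass, among them DPF2, which had the largest rise of the 10 (0.57 ± 0.22, adjusted p = 0.11) and passed in 3 of 13 settings. Their spread was wide, as for ARID1B at 60.7, 165 and 118 CPM and BICRA at 17.6, 34.5 and 18.3 CPM, with the lowest ARID1B level in replicate 1 and the highest levels of both in replicate 2.

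None of the 10 genes passed the test of whether the shMITF effect differed between the lines in edgeR, in which 2.16% of 19284 genes were higher and 0.830% lower. At an unadjusted p under 0.05, 1 was higher and 2 were lower in 501Mel, and DESeq2 called 2 lower: ARID2 (-0.92 ± 0.25 in edgeR, adjusted p = 0.073) and PBRM1 (-0.82 ± 0.26, adjusted p = 0.11). Without replicate 1 of Hermes 3A shMITF, edgeR called 3 lower, ARID2 (-1.07), PBRM1 (-0.97) and ARID1B (-0.81).

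The 2 knockdowns of 501Mel were set against each other as the difference of their effects, each relative to its own scramble. Of the 10 genes 4 had a higher and 4 a lower effect with shBRG1 than with shMITF, where 21.2% of 22255 genes were higher and 26.8% lower (4729 and 5975, or 6347 and 4721 with library sizes, which moved the median of all genes from 0.02 to 0.24). PHF10 (-1.53 ± 0.14, adjusted p = 2.3e-07) and BRD7 (-0.60 ± 0.11, adjusted p = 0.00031), which had not passed with shMITF, fell more with shBRG1, as did PBRM1 (-0.83 ± 0.16) and ARID1B (-0.82 ± 0.10). BICRA (1.22 ± 0.15, adjusted p = 8.7e-06), ARID2 (0.94 ± 0.15, adjusted p = 8.8e-05), ARID1A (0.48 ± 0.11) and SS18 (0.33 ± 0.12, adjusted p = 0.031) had a higher effect with shBRG1. These differences include the offset between the scramble groups, which was 0.76 for SS18 and 0.81 for ARID2. The level of SS18 itself was lower with shBRG1 (59.9 CPM) than with shMITF (75.6 CPM), and that of ARID2 was 40.8 and 34.9 CPM. Against pooled scrambles SS18 was at 0.48 with shBRG1 and 0.87 with shMITF, and ARID2 at -0.03 and -0.20. SS18 lost this call when replicate 2 or 3 of shSCR1, replicate 2 of shSCR2 or replicate 1 of shMITF was left out (adjusted p = 0.055 to 0.23).

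Ratios within a library do not depend on how libraries are scaled. The ratio of PBRM1 to ARID1A, a measure of PBAF against canonical BAF transcripts that was added after the values were seen, was 0.52 ± 0.09 with shSCR1 and -1.97 ± 0.04 with shBRG1 in 501Mel on the log2 scale per kilobase (SD, n = 3). In Hermes 3A it was 0.33 ± 0.10 with shSCR, -0.60 ± 0.05 with shBRG1 and -0.29 ± 0.08 with shMITF. PBRM1 was thus above ARID1A per kilobase in every scramble library and below it in every knockdown library, including both of 501Mel shMITF at -0.31 and -0.07. The sign depended on the lengths used: per kilobase of merged exons, PBRM1 stayed above ARID1A with shMITF in 501Mel (10.5 against 8.33 CPM per kilobase) and in Hermes 3A (9.10 against 7.75). The ratio of ARID1A to ARID2, alternative ARID subunits of the complexes, was 2.34 ± 0.03 with shSCR1 and 2.19 ± 0.11 with shBRG1 (exact permutation p = 0.2). With shSCR2 it was 1.62 ± 0.16, further from shSCR1 than shBRG1 was, and with shMITF in 501Mel 1.95 ± 0.22 (n = 2). In Hermes 3A it was 1.75 ± 0.11 with shSCR and 1.70 ± 0.03 with shBRG1. With shMITF there it was 1.401 ± 0.07 (p = 0.1, exact permutation, the smallest possible). The ratio of BRD9 to BRD7, related bromodomain subunits of ncBAF and PBAF, went from 3.24 ± 0.06 to 3.95 ± 0.06 with shBRG1 in 501Mel, but from 2.52 ± 0.13 to 2.29 ± 0.05 in Hermes 3A. With shSCR2 it was 2.09 ± 0.22 (n = 2), further from shSCR1 than shBRG1 was. With shMITF it was 2.20 ± 0.07 in 501Mel (n = 2) and 1.97 ± 0.16 in Hermes 3A. With 3 against 3 samples the exact test cannot go below 0.1, and with 2 against 2 not below 0.333.

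**Figure D4:**
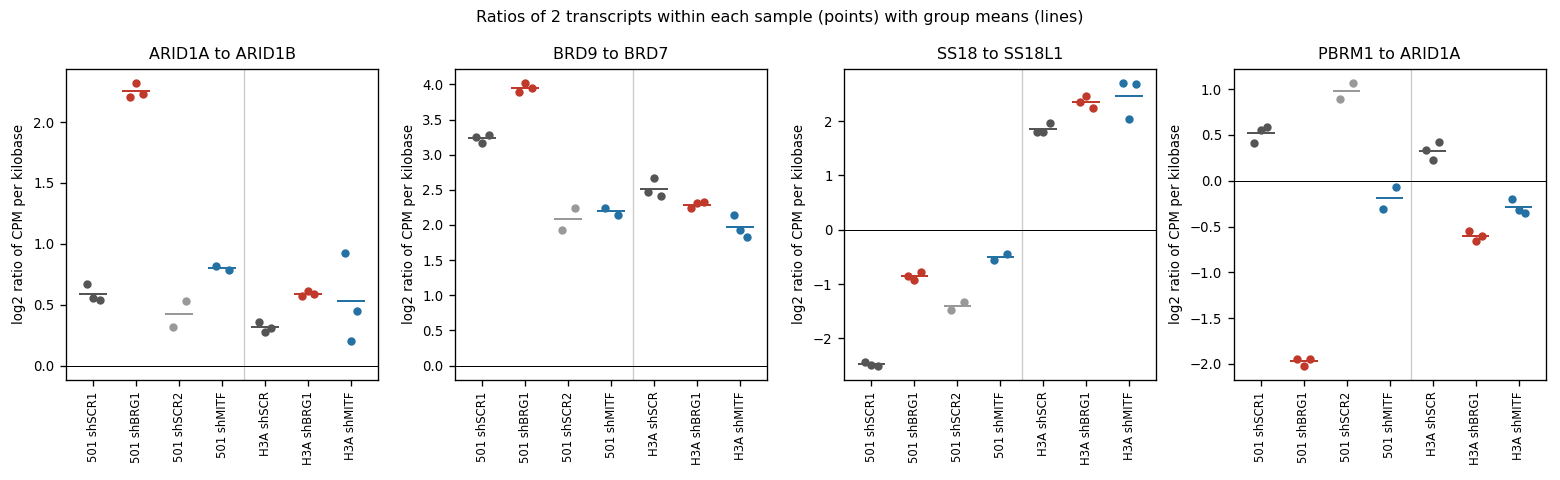
Log2 ratio of 2 transcripts per kilobase within each library (vertical axes, points) in the 7 groups, with a line at each group mean (501, 501Mel; H3A, Hermes 3A). ARID1A to ARID1B stands at 2.25 with shBRG1 in 501Mel against 0.59 with shSCR1, and SS18 to SS18L1 is below 0 in every 501Mel library and above 0 in every Hermes 3A library.

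The other SWI/SNF genes, 18 core, catalytic and paralogous subunits, give the setting of these changes. With shBRG1 in 501Mel 3 rose and 13 fell of 17 tested, with a median of -0.48 against 0.05 for all genes. Of all genes 41.2% were higher and 39.1% lower, and SMARCA4, the target of the hairpin, was among the 13. Apart from SMARCA4 itself, the core subunit SMARCC2 (BAF170) was among those that fell (-1.17 ± 0.05, adjusted p = 2.7e-16), and BCL7B rose most (0.51 ± 0.06). These changes are against shSCR1. The mean of SMARCC2 with shBRG1, 53.7 CPM, also lay below that with shSCR2, 90.5 CPM. BCL7B was at 22.6 CPM with shSCR1, 33.6 CPM with shBRG1 and 36.5 CPM with shSCR2. Each of the 3 that rose had a lower mean with shBRG1 than with shSCR2. In Hermes 3A 4 rose and 6 fell, SMARCA4 among them, of 16 with shBRG1, where 28.2% of all genes were higher and 28.6% lower. There SMARCC2 was at 0.00 ± 0.04 (adjusted p = 0.93), BICRAL rose most (0.47 ± 0.07) and, after SMARCA4, the subunit that fell furthest was BCL7A (-0.76 ± 0.06). With shMITF 3 of 16 passed in 501Mel, all lower, BICRAL furthest (-0.48 ± 0.15, adjusted p = 0.0498), where 10.0% of all genes were higher and 10.5% lower. These calls are against shSCR2. The means of BICRAL and SS18L1 with shMITF also lay below those with shSCR1. SMARCD1, also among the 3, was at 99.2 CPM with shMITF, 141 CPM with shSCR2 and 59.1 CPM with shSCR1. Of 17 in Hermes 3A, SMARCE1 rose (0.52 ± 0.12, adjusted p = 0.019) and SMARCC1 fell (-0.41 ± 0.12, adjusted p = 0.045). There 7.85% of all genes were higher and 9.15% lower.

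Likeness of response was measured as the distance between the log2 fold changes of 2 genes over the 4 knockdown comparisons, among 25 SWI/SNF genes, where 0 means equal changes. The comparisons of Hermes 3A share their controls, so the 4 values are not independent. The closest pair that included one of the 10 was BRD7 with SMARCA2 (0.26), the alternative ATPase, which fell with shBRG1 in 501Mel (-0.80) more than in Hermes 3A (-0.11). ARID1B was nearest to SMARCC2 (0.57) and PHF10 to ARID1B (0.72). DPF2 and SS18 were nearest to each other (0.64) and BICRA to SS18 (0.77). PBRM1 stood farthest from its nearest gene, ARID1B (1.42), and no other compared gene fell as far with shMITF in 501Mel.

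Some counts could hold reads of other genes, since the sources do not state whether strand was used. BRD7 shares 40.6% of its exon bases with ADCY7 on the opposite strand, whose count reached at most 30.9% of that of BRD7 in a sample. The other genes share at most 7.77% of their exon bases with a neighbour, BRD9 with TRIP13, but some of these neighbours had more reads: in a sample the count of C6orf120 reached up to 525% of that of PHF10, TRIP13 up to 156% of BRD9 and SMIM4 up to 107% of PBRM1. How many reads fell on the shared bases was not tested. Processed copies of BRD7 and BRD9 elsewhere in the genome had at most 2.57% of the count of their parent gene.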

How the data were processed

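RNA-seq of 19 samples was analysed, grouped by the sample labels. The authors depleted ribosomal RNA from total RNA, lowered the most abundant cDNAs with a duplex-specific nuclease and amplified the libraries, steps that can compress differences of abundant transcripts. For each sample the deposited values are raw counts of reads for Ensembl genes, not normalized. The submitters' processing notes name hg19, CASAVA 1.8, TopHat 1.4.1 and Bowtie 0.12.7, and the counting program and annotation are not given in the sources used here. Ensembl identifiers were looked up in GENCODE 29 (GRCh38) for positions and transcript lengths, since the count files hold no coordinates.

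Genes listed for all groups of a comparison were tested in edgeR 4.0.16 on R 4.3.3, with TMM normalization, the filterByExpr filter, a robust quasi-likelihood fit of only those groups and Benjamini-Hochberg adjustment over all genes tested. A gene passed at an adjusted p under 0.05. The study's rule adds a log2 fold change over 1 in size. The SE was the size of the log2 fold change over the root of its F statistic. CPM were TMM-normalised over all 19 samples together, whereas fold changes came from fits of single comparisons. Alternatives were DESeq2 1.42.0, library sizes, no filter, a minimum of 10 counts per sample, a block for replicate number, other control groups, all groups of a line in 1 fit, and each replicate left out. The code was tested on simulated data. No pair of replicates agreed within sampling noise.

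All 10 genes, SMARCA4, MITF and the paralogs DPF1, DPF3, SS18L1 and BICRAL were to be named, and of the other SWI/SNF genes those that rose and fell most. SMARCA2, SMARCC2 in Hermes 3A, SMARCD1 and the overlapping genes were named after their values were seen. The genes and lists were chosen with earlier results of these data known. Tables were made in Python 3.11.15 with numpy 2.4.6, pandas 2.3.3 and scipy 1.17.1, and figures with matplotlib 3.10.9.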

Additional observations from a re-analysis of the deposited data

Results flagged for a closer look

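The effect of shBRG1 differed between 501Mel and Hermes 3A for 7 of the 10 genes when the difference of the log2 fold changes was tested in 1 fit (edgeR, adjusted p under 0.05 over all genes). Of all genes tested 24.8% were higher and 33.1% lower in that test, so that 7 of 10 is near the share over all genes. It was -1.62 for PBRM1, -1.44 for ARID1B, -1.25 for PHF10 and -0.53 for BRD7, so that these transcripts fell further in 501Mel. It was 0.89 for BICRA, 0.41 for BRD9 and 0.19 for SS18, which was no longer called when any of 8 of the 12 samples was left out (highest adjusted p = 0.15). BRD9 was at 0.12 in 501Mel and -0.32 in Hermes 3A, but its rise in 501Mel passed in only 6 of 14 settings. The melanoma line and the melanocyte line were grown in different media, and line and medium cannot be told apart.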

How the results depend on the processing

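Over 9 comparisons, 1256 recomputed values of single genes gave 1113 with the same direction and side of the threshold, 76 that were no longer called, 30 newly called and 37 of the opposite sign. PBRM1, PHF10, ARID1B, BRD7 and BICRA kept direction and call under each alternative run for shBRG1 in 501Mel, as did PBRM1, PHF10, SS18 and BRD9 for shBRG1 in Hermes 3A. Other calls moved with replicates left out, control choice, scaling and filtering. There were 2 samples a group for shMITF in 501Mel, the spread of shMITF in Hermes 3A was wide, and the scramble groups of 501Mel differed. Where a value changed below, the cause was not tested.

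Pairing of samples by replicate number was not shown. Correlations of deviations between same-numbered samples ranged from -0.113 to 0.210. Between samples of different numbers their means ranged from -0.0689 to 0.0265. With 2 or 3 samples a group these values cannot settle whether samples were paired. With the replicate number as a block, shMITF in Hermes 3A had 0 genes higher, and 1 gene rather than 2 was lower in shSCR2 than in shSCR1. The other counts stayed within 1.5 times, for shBRG1 in Hermes 3A at 4 lower, with ARID1B added. A block could not be fitted for 501Mel against Hermes 3A scramble samples, and that alternative was not run.

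Counts of the 10 genes moved by over 1.5 times as follows. With both scramble groups pooled, 1 gene was higher with shBRG1 in 501Mel, and 0 were higher and 0 lower with shMITF. Over all genes, that setting called 5639 of 20772 higher with shBRG1, and 457 of 19569 higher and 355 lower with shMITF. With all groups of the line in 1 fit, 1 was higher with shBRG1 in Hermes 3A, and 2 were higher and 2 lower with shMITF. For shMITF in Hermes 3A, 2 were lower with DESeq2, 0 with library sizes and 2 with a minimum of 10 counts. With library sizes 1 was lower in 501Mel than in Hermes 3A scramble samples, and 6 had a higher shBRG1 effect in 501Mel, against 5 with at least 10 counts. For the shMITF effect between lines, 2 were lower with DESeq2 and 2 with no filter. DESeq2 gave 1 lower in shSCR2. With single samples left out, shMITF in 501Mel had 0 to 2 higher, shMITF in Hermes 3A 0 to 2 higher and 0 to 2 lower, the shMITF effect between lines 0 to 3 lower, and shSCR2 against shSCR1 1 to 2 lower. A group left with 1 sample was assumed to vary like the others. For shMITF in Hermes 3A without any 1 shSCR sample, 295 to 356 of all genes were higher and 468 to 556 lower, against 1296 and 1510.

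The values of opposite sign were mostly small. With pooled scrambles, ARID2 with shBRG1 in 501Mel was -0.033, and with shMITF BRD9 was -0.19 and SMARCA4 0.29. With shSCR2 as the control, ARID2 was 0.49 between the lines. With library sizes, BICRA with shMITF in 501Mel was 0.066, BRD7 with shBRG1 in Hermes 3A 0.011, ARID1A with shMITF in Hermes 3A 0.066, BICRA between the lines 0.084, ARID1A and DPF2 in the shBRG1 difference between lines 0.22 and 0.17, DPF2 in shBRG1 minus shMITF 0.046, and ARID1A in shSCR2 against shSCR1 -0.047. With the minimum of 10 counts, ARID1A and DPF2 in the shBRG1 difference were 0.14 and 0.089, and ARID1A in shSCR2 against shSCR1 was -0.014. With DESeq2, ARID1A in the shBRG1 difference was 0.028, and with no filter SS18 in the shMITF difference was -0.0028. With single samples left out, values crossed 0 as follows. With shMITF in 501Mel, BRD7 ranged from -0.056 to 0.092 and BICRA from -0.23 to 0.17. With shMITF in Hermes 3A, ARID1A ranged from -0.22 to 0.12, ARID1B from -0.54 to 0.12, PHF10 from -0.063 to 0.18 and BICRA from -0.21 to 0.35. Between the lines, ARID1B ranged from -0.013 to 0.069. In the shBRG1 difference, ARID1A ranged from -0.10 to 0.033, DPF2 from -0.16 to 0.022 and ARID2 from -0.0094 to 0.14. In the shMITF difference, DPF2 ranged from -0.35 to 0.12, SS18 from -0.095 to 0.16 and BICRA from -0.41 to 0.16. In shBRG1 minus shMITF, BRD9 ranged from -0.089 to 0.088. In shSCR2 against shSCR1, ARID1A ranged from -0.048 to 0.26. The change of the log2 ratio of BRD9 to BRD7 with shMITF in 501Mel ranged from -0.048 to 0.26.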
